A study of Mus musculus with 5 samples.

Results

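DNA replication and the supply of its nucleotides were followed through 35 genes chosen by symbol from their roles in these pathways. The genes were chosen with earlier results of these data known, so the counts and shares given for them below are descriptions without a test of the list. They were 35 of the 54113 named entries of the count table and 35 of the 16133 genes that were tested, so every member passed the filter on low counts. The samples were tumours grown in C57BL/6 mice inoculated with MC38, a mouse colon carcinoma line. The mice carried no labelled genetic change and were kept at 30 °C, close to thermoneutrality for a mouse, or at 4 °C, each for 2 weeks. RNA of 3 tumours at 30 °C and 2 tumours at 4 °C was sequenced. The labels give no age or sex for these mice and no site for the tumours, and the model is 1 implanted line in a host with its own blood and stromal cells. The study counts the libraries as biological samples but does not say whether each came from a separate mouse, so p-values measure the spread between these libraries.

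Before a cell divides, the origin recognition complex, Cdc6 and Cdt1 load the Mcm2 to Mcm7 helicase onto DNA in G1. Cdc45 and the GINS complex then turn the loaded helicase into a moving fork, polymerase alpha with primase starts each strand, and polymerases epsilon and delta extend the strands with the help of the sliding clamp PCNA. Ribonucleotide reductase, thymidylate synthase and thymidine kinase supply deoxynucleotides. Most of these genes are known targets of E2F transcription factors, peak around the entry into S phase, and are widely used as readouts of proliferation in tumours and in dividing blood cells.

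Named genes received from 16191708 to 20320525 counts per library. Levels are given as counts per 1000000 counts of a library (CPM) whose total was scaled by TMM (trimmed mean of M-values), called TMM-scaled CPM, in the order of the replicate numbers. Some libraries stood apart in their content. Acinar and islet genes of the pancreas summed to 404013 TMM-scaled CPM in 30 °C replicate 2 (297495 CPM without TMM) and to 2926 in 4 °C replicate 2, and to between 22.5 and 84.9 in the other libraries. Epithelial genes of a colon carcinoma were low in all 5 libraries (18 to 181 TMM-scaled CPM over 11 genes), and Krt19, Cdx2, Vil1, Cldn3 and Cldn4 each had 0 counts in at least 1 library. The highest epithelial sums, 181 and 90.6, were in 30 °C replicate 2 and 4 °C replicate 2, the libraries with the most pancreatic transcripts. The epithelial markers searched for were thus low or close to absent, and their level in MC38 cells alone was not tested. B cell markers summed to between 1324 and 3968 TMM-scaled CPM and erythroblast markers to between 3504 and 6857. The samples are called tumours here as their labels do.

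The replication genes leaned lower at 4 °C, but none of the 35 passed the adjusted threshold in the main test. Their summed level was 3963, 4278 and 3759 TMM-scaled CPM at 30 °C (4000.2 ± 261, mean ± SD, n = 3) and 2557 and 3069 at 4 °C (2813 ± 362, n = 2). On this scale both tumours at 4 °C were below all 3 tumours at 30 °C, and the mean at 4 °C was 70.3% of that at 30 °C. Without TMM the sums were 4259, 3150.2 and 4237 CPM at 30 °C and 2762 and 3163 at 4 °C, so that 4 °C replicate 2 lay just above 30 °C replicate 2 and the groups overlapped. The log2 fold change (4 °C against 30 °C) was below 0 in 32 of the 35 members, against 49.3% of all tested genes. Its median over the members was -0.49, beside 0.006 over all tested genes, and it ranged from -1.04 for Cdc6 to 0.14 for Rfc2.

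In the quasi-likelihood test of edgeR, 0 of the 35 members had a Benjamini-Hochberg adjusted p under 0.05, as did 0% of the 16133 genes, and the smallest adjusted p of a member was 0.69. At an unadjusted p under 0.05, 18 members were lower at 4 °C and 0 were higher, whereas 4.17% of all tested genes were lower and 2.58% higher. The groups did not overlap in 24 members that were lower at 4 °C, with 11% of all genes in that class, and in 1 member, Rfc2, that was higher, with 12.2% of all genes in that class. The Wald test of DESeq2 called 5 members lower at an adjusted p under 0.05, with 0.787% of its genes called lower. These were Cdc6 (adjusted p = 0.0021), Mcm10 (0.011), Rrm1 (0.023), Orc1 (0.031) and Pole (0.046). In counts simulated for all tested genes with their fitted spread, false calls exceeded the nominal share with both tools, and more so with DESeq2. False calls among the members were not assessed separately. The members varied less at 30 °C, with a median coefficient of variation of 7.89%, beside 19.3% over all tested genes. That comparison was not matched for count level, and every member had at least 204 counts in every library. Without 30 °C replicate 2, the library with the pancreatic transcripts, DESeq2 called 0 members (smallest adjusted p 0.51, 0.00624% of genes called lower) and 9 were lower at its unadjusted p under 0.05, beside 2.48% of all genes. In edgeR the count of 18 became 10 without that library, where 2.2% of all genes were lower, and 9 without 4 °C replicate 1 (4.24%). With scaling to total counts, which leaves the pancreatic transcripts in, it was 1 (2.13%), and 13 members had groups that did not overlap and were lower at 4 °C (5.41%). In bulk tissue, fewer cells in S phase and less RNA per cell cannot be told apart.

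**Figure D1:**
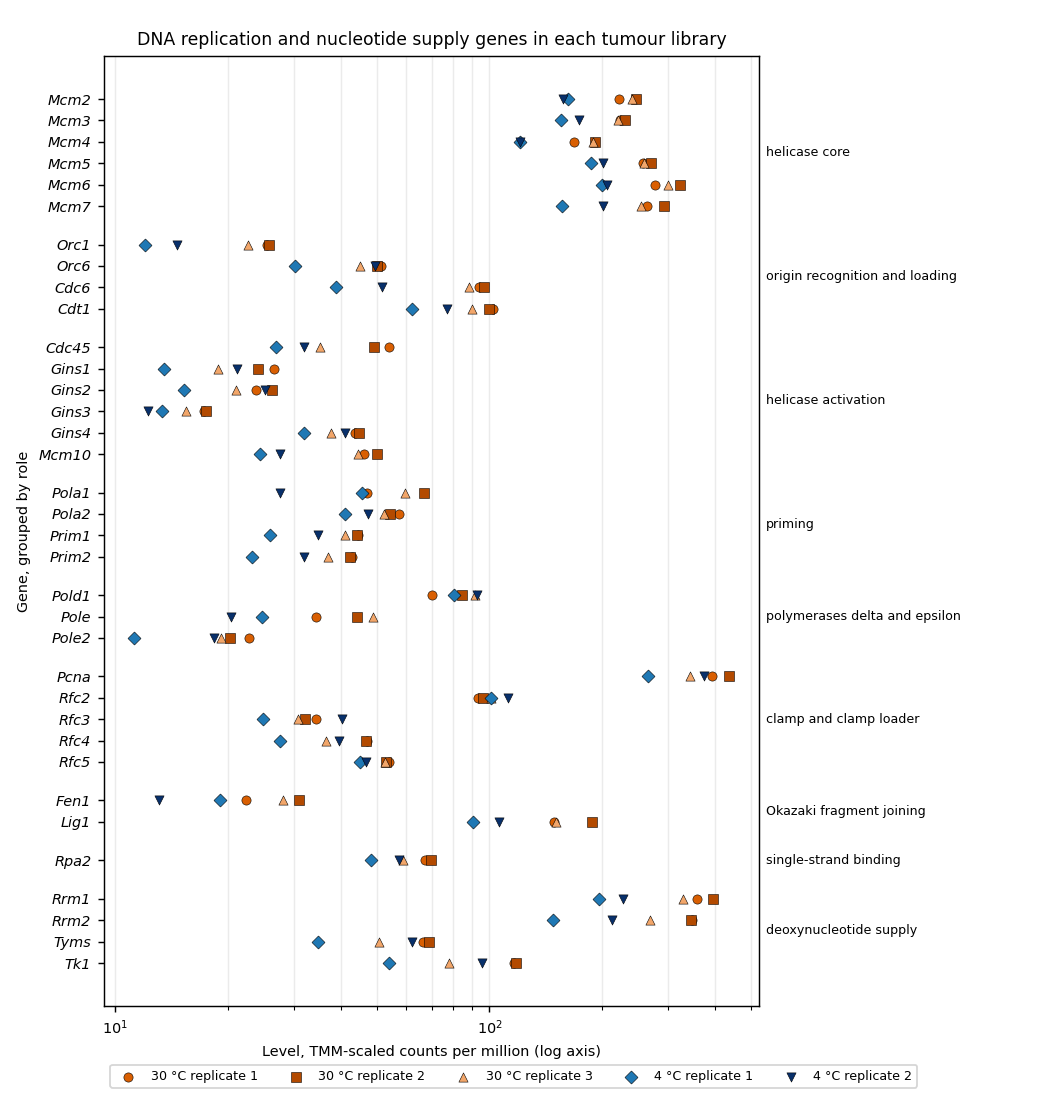
Level of each of the 35 genes in each tumour library, in TMM-scaled CPM on a log axis, with genes grouped by role. Orange points are the 3 libraries at 30 °C and blue points the 2 at 4 °C, and in 24 genes both blue points lie to the left of all orange points.

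The regions around the RefSeq start sites are shown because the known regulator of these genes, E2F, binds a short element near gene starts. RefSeq windows of 250 bases before to 50 bases after that start site (GRCm38.p6) were matched for 28 of the 35 members. The E2F element was searched on both strands as TTTCCCGC, TTTCGCGC, TTTGCCGC and TTTGGCGC, forms that can overlap one another. It was present in 13 of the 28 members (46.4%), namely Mcm3, Mcm5, Mcm6, Mcm7, Orc1, Cdc6, Cdt1, Gins3, Pola1, Pold1, Pole2, Rfc3 and Lig1, and in 2.6% of all 27025 gene symbols with a window. The median log2 fold change was -0.49 in these 13 members and -0.48 in the 15 members without a match. The CCAAT element was present in 17 of the 28 (60.7%, against 41.1% of all symbols), and the cell cycle homology element TTTGAA in 4 (14.3%, against 20.2%). A match is a stretch of letters and was not tested as a binding site. The windows of the 4 members with the smallest p among those with an E2F match are given 5′ to 3′ on the gene's strand, with the E2F matches in capitals.
Cdc6, chr11:98907901-98908200, plus strand: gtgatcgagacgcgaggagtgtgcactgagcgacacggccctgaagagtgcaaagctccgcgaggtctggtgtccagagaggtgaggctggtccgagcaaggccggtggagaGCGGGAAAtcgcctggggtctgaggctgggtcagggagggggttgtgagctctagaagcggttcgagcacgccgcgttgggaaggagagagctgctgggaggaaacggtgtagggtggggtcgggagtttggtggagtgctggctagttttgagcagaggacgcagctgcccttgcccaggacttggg
Orc1, chr4:108579204-108579503, plus strand: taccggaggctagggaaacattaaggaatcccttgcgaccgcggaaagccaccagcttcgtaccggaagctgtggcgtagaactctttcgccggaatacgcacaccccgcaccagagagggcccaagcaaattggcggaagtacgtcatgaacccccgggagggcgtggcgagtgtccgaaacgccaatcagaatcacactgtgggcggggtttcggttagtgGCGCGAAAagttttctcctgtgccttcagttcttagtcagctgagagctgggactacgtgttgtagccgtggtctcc
Lig1, chr7:13278576-13278875, plus strand: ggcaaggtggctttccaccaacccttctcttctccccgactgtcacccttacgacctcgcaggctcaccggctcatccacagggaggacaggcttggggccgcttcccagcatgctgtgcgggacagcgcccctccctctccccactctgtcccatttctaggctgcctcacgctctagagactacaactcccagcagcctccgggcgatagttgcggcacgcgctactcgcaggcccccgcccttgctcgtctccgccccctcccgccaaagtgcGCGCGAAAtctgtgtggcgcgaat
Mcm6, chr1:128359656-128359955, minus strand: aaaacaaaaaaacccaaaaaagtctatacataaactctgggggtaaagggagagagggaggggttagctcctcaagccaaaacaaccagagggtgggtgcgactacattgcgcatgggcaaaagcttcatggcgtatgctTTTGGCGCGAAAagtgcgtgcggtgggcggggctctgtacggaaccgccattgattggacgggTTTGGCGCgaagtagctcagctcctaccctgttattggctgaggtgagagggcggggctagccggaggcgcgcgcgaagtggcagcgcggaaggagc
Distances are from the RefSeq start site, which can differ from the gene start in the coordinates given below. The windows of Cdc6 and Lig1 lay wholly inside those gene coordinates. In Cdc6 the match began 138 bases before the start, and in Orc1 27 bases before it. The match in Lig1 began 26 bases after the start. Mcm6 had 3 matches, which began 110, 106 and 47 bases before the start, and the first 2 overlapped on opposite strands.

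The factors that mark and load origins held the member with the smallest p. Cdc6, the ATPase that joins the origin recognition complex to recruit the helicase (chromosome 11, 98907801 to 98923940), was at 93.9, 96.7 and 88.3 TMM-scaled CPM at 30 °C and at 38.8 and 51.6 at 4 °C. Its highest tumour at 4 °C thus stood far below its lowest tumour at 30 °C. The means were 92.9 ± 4.27 and 45.2 ± 9.04, a level at 4 °C of 48.6% (log2 fold change -1.04, SE 0.19, edgeR unadjusted p = 0.0013), and leaving out any 1 library gave log2 fold changes from -1.28 to -0.85. Orc1, the largest subunit of the origin recognition complex (chromosome 4, 108579423 to 108614833), was at 25.5, 25.8 and 22.6 TMM-scaled CPM at 30 °C and at 12 and 14.6 at 4 °C. That left 53.9% of the 30 °C level (log2 fold change -0.89, SE 0.20, unadjusted p = 0.0035). Cdt1, which brings the helicase to the origin (chromosome 8, 122568015 to 122573554), had the highest mean of the 4 loading genes, with 102, 100 and 89.8 TMM-scaled CPM at 30 °C and 61.9 and 76.9 at 4 °C. Its groups did not overlap (log2 fold change -0.49, SE 0.18, unadjusted p = 0.033). Orc6, the smallest subunit of the complex, behaved differently, because 4 °C replicate 2 (49.5 TMM-scaled CPM) lay within the range at 30 °C (45.0 to 51.2), while 4 °C replicate 1 was at 30.2. Summed over the 4 genes, loading factors were at 273, 273 and 246 TMM-scaled CPM at 30 °C and at 143 and 193 at 4 °C.

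The 6 subunits of the helicase core, the motor that unwinds DNA, were all lower at 4 °C. Mcm2, Mcm3, Mcm4, Mcm5, Mcm6 and Mcm7 all had both tumours at 4 °C below all tumours at 30 °C and an unadjusted p under 0.05, with log2 fold changes between -0.60 and -0.43. Mcm4 (chromosome 16, 15623897 to 15637400) was at 168, 192 and 189 TMM-scaled CPM at 30 °C and at 121 and 121 at 4 °C. This was the smallest p of the 6 (log2 fold change -0.60, SE 0.16, edgeR unadjusted p = 0.0088). Mcm6 (chromosome 1, 128331590 to 128359664) had the highest mean of the 6 and stood at 277, 324 and 299.6 TMM-scaled CPM at 30 °C against 200.1 and 206 at 4 °C, or 67.6% (log2 fold change -0.56, SE 0.16). Mcm7 was the subunit in which the tumours at 4 °C differed most from each other, with 156 and 201 TMM-scaled CPM beside 264, 292 and 254 at 30 °C. The sum of the 6 was 1409.8, 1555 and 1464 TMM-scaled CPM at 30 °C and 981 and 1058 at 4 °C, which is 69.1%.

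Of the genes that turn the loaded helicase into a fork, Mcm10 had the smallest p. Mcm10, a scaffold needed for the helicase to start (chromosome 2, 4989714 to 5012791), was at 46.2, 49.9 and 44.4 TMM-scaled CPM at 30 °C and at 24.4 and 27.6 at 4 °C. The mean at 4 °C was 55.4% of that at 30 °C and the groups were well apart (log2 fold change -0.85, SE 0.17, edgeR unadjusted p = 0.0022). Cdc45, a fixed partner of the moving helicase, was at 53.8, 49.0 and 35.3 TMM-scaled CPM at 30 °C and at 26.8 and 32.0 at 4 °C. Here 30 °C replicate 3 came close to the tumours at 4 °C (log2 fold change -0.65, SE 0.24, unadjusted p = 0.032). Among the GINS subunits, which hold the helicase in its active form, only Gins3 had groups that did not overlap (17.3, 17.5 and 15.4 against 13.3 and 12.2 TMM-scaled CPM), and its unadjusted p was 0.089. In Gins1, Gins2 and Gins4, 4 °C replicate 1 was the lowest library while 4 °C replicate 2 lay within the range at 30 °C, with log2 fold changes of -0.42, -0.23 and -0.20.

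Primase and polymerase alpha, which lay down the primer and the first stretch of DNA, were lower at 4 °C in all 4 subunits. Prim2, the large primase subunit (chromosome 1, 33453810 to 33669795), had the smallest p, with 42.9, 42.5 and 37.1 TMM-scaled CPM at 30 °C and 23.2 and 31.9 at 4 °C. Its log2 fold change was -0.57 (SE 0.21, edgeR unadjusted p = 0.033), and that of Prim1, the catalytic subunit, was -0.51 (SE 0.20, unadjusted p = 0.039). The catalytic subunit of polymerase alpha, Pola1 (chromosome X, 93304767 to 93632155), varied most between libraries, at 47.0, 66.9 and 59.3 TMM-scaled CPM against 45.7 and 27.6. Its mean at 30 °C was the highest of the 4 without correction for transcript length, whereas at 4 °C that of Pola2 was higher (44.2 against 36.7). Per kilobase of transcript, Pola1 was the lowest at 30 °C (10.8, beside 28.2 for Prim1, 22.5 for Pola2 and 20.7 for Prim2). The groups did not overlap, but the gap between 30 °C replicate 1 and 4 °C replicate 1 was small (log2 fold change -0.65, SE 0.28, unadjusted p = 0.054). Pola2, the accessory subunit, was at 52.2 to 57.2 TMM-scaled CPM at 30 °C and at 41.1 and 47.3 at 4 °C, with an unadjusted p of 0.11.

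The catalytic subunits of polymerases epsilon and delta had different values, and the difference between them was not tested. Pole, the leading-strand polymerase epsilon (chromosome 5, 110286306 to 110337474), was at 34.3, 44.2 and 48.7 TMM-scaled CPM at 30 °C and at 24.7 and 20.4 at 4 °C, or 53.1% (log2 fold change -0.91, SE 0.22, edgeR unadjusted p = 0.0057). Pold1, the lagging-strand polymerase delta (chromosome 7, 44532746 to 44548849), was at 70.1, 84.4 and 91.6 at 30 °C and at 80.2 and 92.4 at 4 °C on the same scale. Its groups overlapped and its log2 fold change was 0.07 (SE 0.19, unadjusted p = 0.71). The ratio of Pole to Pold1 counts, chosen after the values were seen and free of the scaling between libraries, was 0.489, 0.523 and 0.532 at 30 °C and 0.308 and 0.220 at 4 °C. It was given no test, and Pole has the longest transcript of the 35 members. Pole2, the second subunit of polymerase epsilon, was at 19.2 to 22.8 TMM-scaled CPM at 30 °C and at 11.2 and 18.4 at 4 °C, groups that did not overlap, with an unadjusted p of 0.11.

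The clamp and its loader had the summed level nearest to that at 30 °C of all roles, with 87.3%. Pcna, the clamp itself (chromosome 2, 132249162 to 132253314), was at 393, 438 and 343 TMM-scaled CPM at 30 °C and at 266 and 374 at 4 °C. 4 °C replicate 2 lay inside the range at 30 °C (log2 fold change -0.29, SE 0.22, edgeR unadjusted p = 0.23). None of the loader subunits reached an unadjusted p under 0.05. Rfc4 (chromosome 16, 23113943 to 23127737) had the smallest p of the 5 genes, with 47.1, 46.7 and 36.6 TMM-scaled CPM at 30 °C and 27.6 and 39.7 at 4 °C (log2 fold change -0.37, SE 0.23, unadjusted p = 0.16). Its groups overlapped, since 4 °C replicate 2 exceeded 30 °C replicate 3. In Rfc5 they did not, with 53.9, 52.9 and 52.7 TMM-scaled CPM at 30 °C and 45.1 and 46.7 at 4 °C (log2 fold change -0.21, SE 0.15, unadjusted p = 0.21). Rfc3 had means of 32.4 ± 1.82 and 32.6 ± 11, with 24.8 and 40.4 TMM-scaled CPM in the tumours at 4 °C. Rfc2 was at 93.1, 96.0 and 101 TMM-scaled CPM at 30 °C and at 101 and 112 at 4 °C, a log2 fold change of 0.14 (SE 0.16, unadjusted p = 0.41). The Mcm2 to Mcm7 counts summed over the Rfc2 to Rfc5 counts gave 6.17, 6.83 and 6.62 at 30 °C and 4.93 and 4.44 at 4 °C, a ratio also chosen after the values were seen.

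Behind the fork, Lig1, which seals the nicks between Okazaki fragments (chromosome 7, 13277283 to 13311433), was at 149, 188 and 150.4 TMM-scaled CPM at 30 °C and at 90.4 and 106 at 4 °C. Both tumours at 4 °C were clearly below the others (60.3%, log2 fold change -0.73, SE 0.19, edgeR unadjusted p = 0.0078). Fen1, the flap nuclease that trims these fragments, was at 22.4, 31.0 and 28.0 TMM-scaled CPM against 19.0 and 13.1 (log2 fold change -0.76, SE 0.25, unadjusted p = 0.023). Its value is uncertain because 84.2% of its exonic bases are shared with Tmem258 and Gm10143 in the annotation and the strand setting of the counting is not stated. The same holds for Gins2, with 67.3% of its exonic bases shared with Gse1. Smaller shares were found in other members, among them Rfc2 (15.1%, with Lat2), Rfc4 (12.7%), Mcm7 (12.6%), Orc1 (10.8%) and Rfc5 (10.7%). Rpa2, a subunit of the protein that coats single-stranded DNA (chromosome 4, 132768332 to 132778752), was at 67.3, 69.7 and 58.6 TMM-scaled CPM at 30 °C and at 48.3 and 57.2 at 4 °C, with groups that just did not overlap (log2 fold change -0.31, SE 0.18, unadjusted p = 0.13).

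Among the genes of nucleotide supply, the log2 fold changes farthest from 0 were those of the subunits of ribonucleotide reductase. Rrm1, the large subunit (chromosome 7, 102441695 to 102469771), was at 359.7, 396 and 329.8 TMM-scaled CPM at 30 °C and at 196 and 228 at 4 °C. The mean of the tumours at 4 °C was 58.6% of that at 30 °C (log2 fold change -0.77, SE 0.18, edgeR unadjusted p = 0.0039). Rrm2, the small subunit that limits the enzyme in S phase, was at 348, 346 and 268 TMM-scaled CPM against 148 and 212, again without overlap (56.0%, log2 fold change -0.84, SE 0.23, unadjusted p = 0.0093). Rrm2 counts were between 0.753 and 0.967 of Rrm1 counts in all 5 libraries, and the groups overlapped in this ratio. Tyms, which makes thymidylate, had 66.6, 68.8 and 50.7 TMM-scaled CPM at 30 °C and 34.9 and 61.9 at 4 °C, and Tk1, the salvage kinase, had 116, 118 and 77.9 against 53.8 and 95.6. In both, 4 °C replicate 2 exceeded 30 °C replicate 3, and the unadjusted p was 0.26 for Tyms and 0.18 for Tk1. Rrm2, Rrm1 and the other supply genes together stood at 890.5, 929 and 727 TMM-scaled CPM at 30 °C and at 433 and 597 at 4 °C, or 60.7%.

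**Figure D2:**
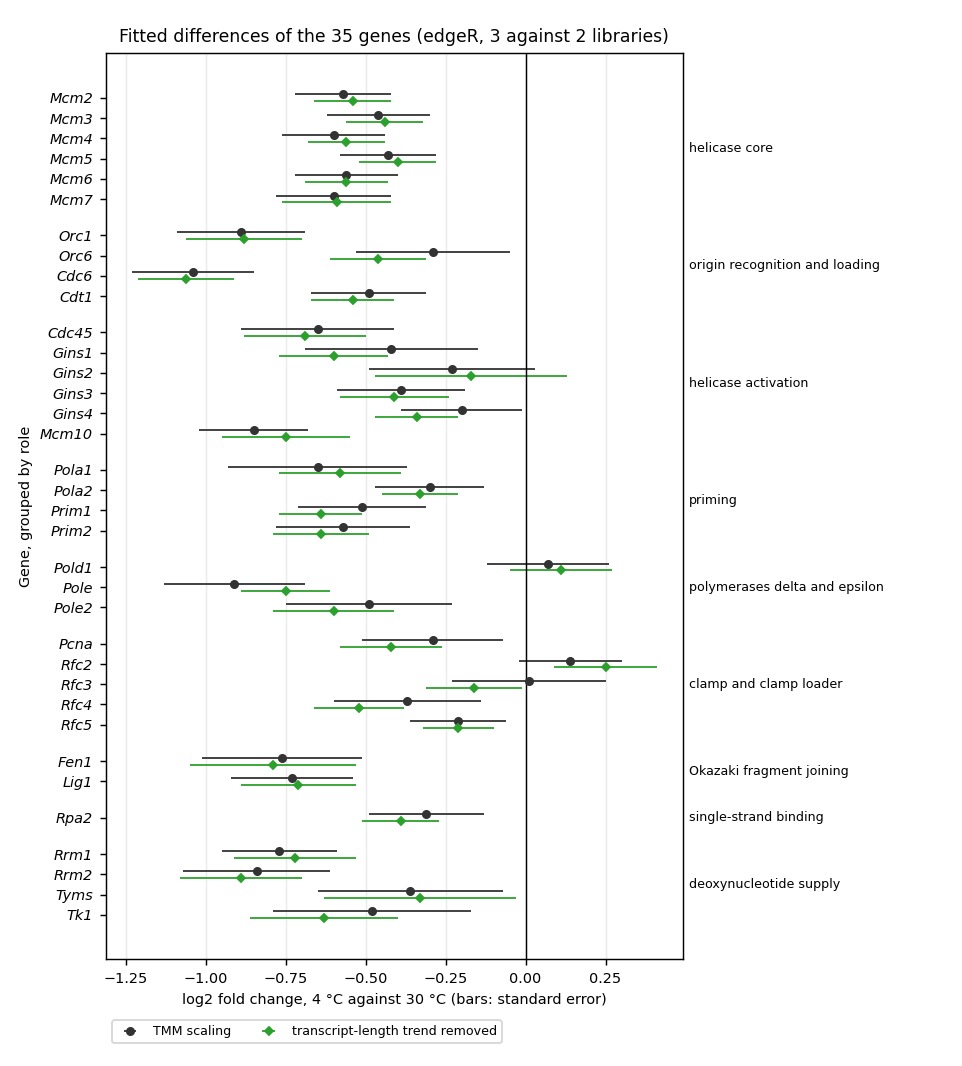
Log2 fold change of each member at 4 °C against 30 °C with bars of 1 standard error from edgeR, grouped by role, with TMM scaling (black) and with the trend with transcript length removed (green). Points left of 0 are lower at 4 °C, and the black points run from -1.04 for Cdc6 to 0.14 for Rfc2.

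The highest means named within each role above are not corrected for transcript length. Here levels of different genes were compared per kilobase, as TMM-scaled CPM divided by the length of the transcript with the longest coding sequence. Mean levels at 30 °C on this scale were highest for Pcna (258), then Rrm2 (146), Mcm6 (103), Mcm7 (91.2) and Rrm1 (90.6), and lowest for Pole (5.92), Gins2 (6.07), Gins3 (6.64) and Orc1 (8.18). At 4 °C Pcna (211), Rrm2 (82.0), Mcm6 (69.8) and Mcm7 (60.3) were again the first 4. Mcm7 and Rrm1 did not differ beyond their spread at 30 °C, since the libraries ranged from 85.9 to 98.7 for Mcm7 and from 82.5 to 99.2 for Rrm1. The 6 helicase subunits, which form a ring with 1 copy of each, lay between 50.9 (Mcm4) and 103 (Mcm6) at 30 °C and between 33.7 and 69.8 at 4 °C.

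The libraries of a group were not alike in all members. Between the tumours at 30 °C, the coefficient of variation had a median of 7.89% over the members, beside 19.3% over all tested genes. The gap between the tumours at 4 °C, as a percentage of their mean, had a median of 21.6%, beside 26.8% over all genes. Neither comparison was matched for count level. On the TMM scale, 4 °C replicate 1 was the lowest of the 5 libraries in 27 members and 4 °C replicate 2 in 6. Of the 35 members, 29 were higher in 4 °C replicate 2 than in 4 °C replicate 1. With scaling to total counts, 4 °C replicate 1 was the lowest in 20 members, 30 °C replicate 2 in 8 and 4 °C replicate 2 in 7. 30 °C replicate 3 exceeded both tumours at 4 °C in 24 members, compared with 31 for replicate 1 and 32 for replicate 2. With scaling to total counts these numbers were 28, 31 and 13, so that replicate 2 went from the most to the fewest. The order of the libraries was not counted over all tested genes, so no share stands beside these numbers.

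The difference between the tumours at 4 °C went with transcript length. Over the 35 members, Spearman's correlation of transcript length with the log2 ratio of 4 °C replicate 2 to replicate 1 was -0.61, and over 13754 genes of known length it was -0.56. Libraries at 30 °C also followed length, as levels relative to the mean of all 5 libraries. The correlation over the members was 0.61 in 30 °C replicate 3 (0.49 over all genes) and -0.38 in 30 °C replicate 1 (-0.19). For the fitted log2 fold change it was -0.31 over the members and -0.25 over all genes. These correlations run across genes of the same libraries and are descriptions. All 12 members with the shortest transcripts (1087 to 2143 bases), Gins1, Rfc4, Orc6, Rfc3, Gins4, Tk1, Pcna, Prim1, Pole2, Rpa2, Prim2 and Cdc45, were higher in 4 °C replicate 2, and their median log2 fold change was -0.39. In the 12 longest (3163 to 7163 bases) 8 were higher in that library and the median was -0.58. When the trend with length was removed from each library, an alternative added after seeing the data, the medians of the short and the long members became -0.56 and -0.55. Removing the trend brings short and long genes together largely by construction, so nothing is concluded from this nearness. In that fit 29 members were lower at an unadjusted p under 0.05, beside 5.03% of all genes, and still 0 had an adjusted p under 0.05 (smallest 0.60). The groups then did not overlap in 30 members, beside 13.5% of all genes. The length curves were drawn from the same 5 libraries and treated as known in that fit. Cdc6 had a log2 fold change of -1.06 (SE 0.15, edgeR unadjusted p = 0.00056) in that fit, Pcna of -0.42 (SE 0.16, unadjusted p = 0.040) and Orc6 of -0.46 (SE 0.15, unadjusted p = 0.024). Pold1 (0.11) and Rfc2 (0.25) remained above 0.

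**Figure D3:**
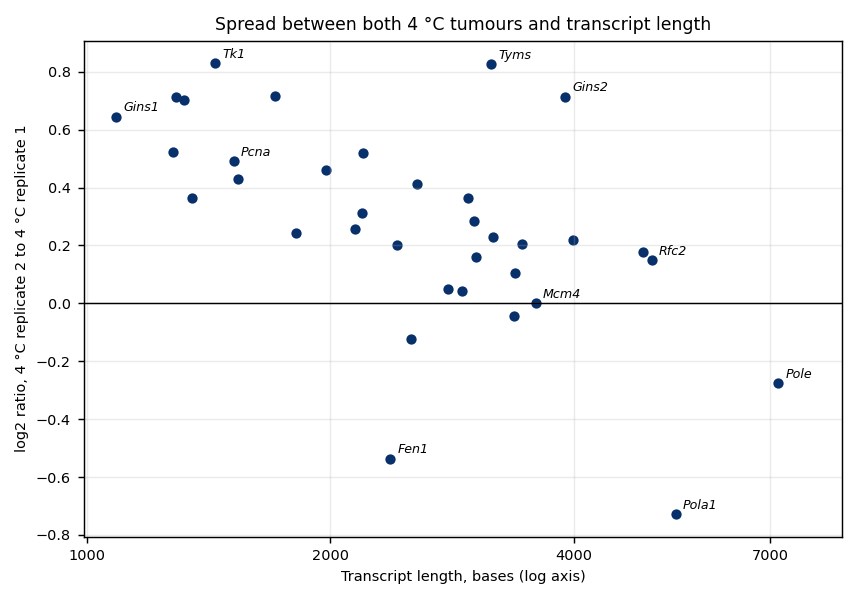
Log2 ratio of the level in 4 °C replicate 2 to that in 4 °C replicate 1 against transcript length in bases (log axis), with 1 point for each of the 35 genes. All 12 genes with the shortest transcripts lie above 0, and Pole and Pola1, with the longest, lie below it.

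Markers of cell types also differed between the libraries. Erythroblast markers (15 genes such as Gata1, Klf1 and Epor) summed to 5760, 6857 and 3550.4 TMM-scaled CPM at 30 °C and to 3541 and 3504 at 4 °C, with 14 of 15 below 0 and 8 lower at an unadjusted p under 0.05. Early neutrophil markers (8 measured genes such as Mpo and Elane) summed to 1834, 1099 and 289.7 at 30 °C and to 223 and 411 at 4 °C, with all 8 below 0 and 0 at an unadjusted p under 0.05. B cell markers (10 genes) summed to 1324, 1977 and 3527 at 30 °C and to 3968 and 3294 at 4 °C, and T cell markers (8 genes) to 251, 296 and 416 and to 561 and 565 TMM-scaled CPM, with 6 of 8 higher at an unadjusted p under 0.05. None of these 41 genes passed the adjusted threshold of edgeR, while DESeq2 called 3 erythroblast genes lower and 4 T cell genes higher. 30 °C replicate 3 was at the level of the tumours at 4 °C in the erythroblast, neutrophil and B cell sums. Its Mcm2 to Mcm7 sum (1464 TMM-scaled CPM) lay between those of 30 °C replicates 1 and 2 (1409.8 and 1555). Its sums of all 35 members (3759) and of the supply genes (727) were the lowest at 30 °C and above both at 4 °C. The sum of the clamp and its loader in this library (565) was also the lowest at 30 °C and lay between those at 4 °C (465 and 612). The part of cell content in the differences of the replication genes was not tested.

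Of the remaining marker lists, germinal centre B cell genes summed to 86.0, 105 and 143 TMM-scaled CPM at 30 °C and to 147 and 139 at 4 °C, and plasma cell genes to 1530.3, 1942 and 1845 and to 2305 and 1971. Blood progenitor genes were at 135 to 150.4 and at 149 and 118, and megakaryocyte genes at 325 to 529 and at 326 and 415, so these groups overlapped. Genes of splenic stroma summed to 127, 148 and 209 at 30 °C and to 213 and 234 at 4 °C.

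Genes of mitosis, the stage after replication, gave a comparable picture. All 16, among them Mki67, Cdk1 and Plk1, had log2 fold changes below 0 (median -0.65), 12 were lower at an unadjusted p under 0.05 (4.17% of all genes), and 13 had groups that did not overlap (11% of all genes). None passed the adjusted threshold of edgeR, and DESeq2 called 2 lower (0.787% of its genes called lower). Of all tested genes, 49.3% were below 0. Their sum was 2259.7, 2904 and 2108 TMM-scaled CPM at 30 °C and 1377 and 1438 at 4 °C, or 58.1%. The counts of the 35 replication members divided by those of the mitosis genes gave 1.75, 1.47 and 1.78 at 30 °C and 1.86 and 2.13 at 4 °C. That ratio was chosen after the values were seen.

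**Figure D4:**
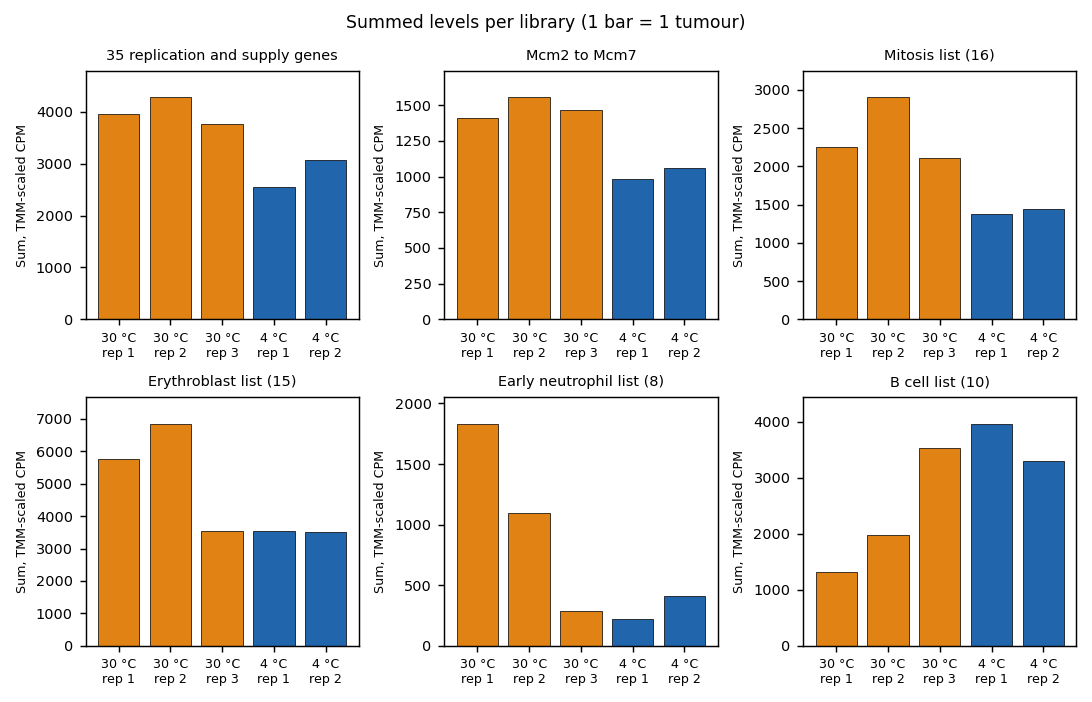
Summed TMM-scaled CPM of the 35 replication genes, of Mcm2 to Mcm7, of mitosis genes and of erythroblast, early neutrophil and B cell markers, with 1 bar for each library and axes that start at 0. Orange bars are tumours at 30 °C and blue bars tumours at 4 °C. 30 °C replicate 3 is near the blue bars for the erythroblast, neutrophil and B cell markers. For the 35 genes it is the lowest orange bar (3759 against 2557 and 3069 at 4 °C), and for Mcm2 to Mcm7 it is at 1464 against 981 and 1058.

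Other genes of the same pathways were read from lists of known members. None of these 117 genes passed the adjusted threshold of edgeR, and DESeq2 called 9 of them, all lower, beside 0.787% of its genes. Without 30 °C replicate 2, DESeq2 called 0 of the 117. For the counts from these lists, the shares over all tested genes were 49.3% below 0. At an unadjusted p under 0.05 in edgeR they were 4.17% lower and 2.58% higher. Of 15 further genes of origin licensing and firing, 14 had a log2 fold change below 0 and 5 were lower at an unadjusted p under 0.05 (median -0.39). The smallest p belonged to Ticrr, needed to fire origins, with 24.3, 27.4 and 24.1 TMM-scaled CPM against 15.6 and 11 (log2 fold change -0.92, SE 0.23, edgeR unadjusted p = 0.0057), and to the helicase Recql4 (-0.62, SE 0.19, unadjusted p = 0.017). Of 24 further fork subunits and processing factors, 19 were below 0, 8 lower and 1 higher at an unadjusted p under 0.05. Clspn, which carries the replication checkpoint signal, was at 56.7, 88.2 and 71.6 TMM-scaled CPM at 30 °C and at 34.5 and 27.2 at 4 °C (42.7%, log2 fold change -1.23, SE 0.25, unadjusted p = 0.0022, DESeq2 adjusted p = 0.0058). Wdhd1, which ties polymerase alpha to the helicase, was at 61.2, 76.4 and 70.4 against 40.3 and 33.4 (-0.91, SE 0.19, unadjusted p = 0.0026).

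All 11 genes that restore chromatin behind the fork were below 0 (median -0.41), 4 of them at an unadjusted p under 0.05. Chaf1a, the large subunit of the histone chaperone CAF-1, had a log2 fold change of -0.80 (SE 0.18, edgeR unadjusted p = 0.0039). Uhrf1, which recruits the maintenance DNA methyltransferase, was at 172, 185 and 179 TMM-scaled CPM at 30 °C and at 110.1 and 120.4 at 4 °C. The medians of nucleotide genes outside the members were nearer to 0. Of 17 genes of deoxynucleotide and one-carbon supply, 9 were below 0 and the median was -0.01. The salvage enzyme Dck had a log2 fold change of -0.55 (SE 0.17, edgeR unadjusted p = 0.017). Of 17 genes of purine and pyrimidine synthesis, 11 were below 0 (median -0.11) and 0 were lower at an unadjusted p under 0.05. Ctps2, which makes CTP, was higher, with 36.0, 31.8 and 38.2 TMM-scaled CPM at 30 °C and 48.1 and 46.1 at 4 °C (log2 fold change 0.41, SE 0.17, unadjusted p = 0.048), and Pfas, of purine synthesis, had a log2 fold change of -0.43 (SE 0.19, unadjusted p = 0.057).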

How the data were processed

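RNA-seq counts of 5 tumour libraries were analysed. The deposited values are raw counts of aligned reads per gene, which the authors made with featureCounts on Gencode vM19 (GRCm38) and did not normalize. The submitters' processing notes also name fastp, HISAT and RSEM. Strand setting and treatment of multiply mapped reads are not given in the sources used here, and no batch or date is given. Unnamed entries (333, 0.0101% to 0.0170% of the counts) were left out, and no member symbol was on several entries.

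In R 4.3.3, low counts were removed by edgeR 4.0.16 (filterByExpr), totals were scaled by TMM, and glmQLFTest (quasi-likelihood, robust, no covariate) compared 4 °C with 30 °C, with Benjamini-Hochberg adjustment over 16133 genes and a threshold of 0.05. SE is the absolute log2 fold change over the square root of F. Printed p-values without "adjusted" are unadjusted. DESeq2 1.42.0 was an alternative, as were other scalings and filters, the replicate number as a block and leaving out each library. Removal of both libraries with pancreatic transcripts, DESeq2 without 30 °C replicate 2 and removal of the length trend were added after seeing the data. Both tools were tested on counts simulated for all tested genes, with the change placed in random genes and not in the members. They recovered the simulated folds, but at the spread of these libraries edgeR missed most genes of the smaller fold, and false calls exceeded the threshold in both tools, more in DESeq2.

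Coordinates, exon overlaps and transcript lengths come from GENCODE M21 on GRCm38, an assembly shared with the counts but a later release. Promoter windows come from RefSeq on GRCm38.p6. The members and lists were chosen with earlier results of these data known. In each role, the member with the smallest p and that with the highest mean TMM-scaled CPM are given in full, and in each list of other genes the 2 with the smallest p. 1 gene under this rule is not reported here. Same-numbered libraries deviated from their group means with correlations of -0.255 and 0.259, so the numbers were not taken as pairs.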

Additional observations from a re-analysis of the deposited data

How the results depend on the processing

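Over 17 alternatives and 35 members, 574 of 595 log2 fold changes kept their direction and side of the adjusted threshold. The members with an adjusted p under 0.05 numbered 0 with edgeR as reported and in every edgeR alternative, 5 with DESeq2 and 0 with DESeq2 without 30 °C replicate 2. The other pathway genes numbered 0 with edgeR, 9 with DESeq2 and 0 with DESeq2 without 30 °C replicate 2. Members lower at an unadjusted p under 0.05 numbered 18 as reported, 1 with total-count scaling (2.13% of all genes), 5 without both libraries with pancreatic transcripts (0.975%), 29 with the length trend removed, 9 with DESeq2 without 30 °C replicate 2, and from 9 (without 4 °C replicate 1, 4.24%) to 22 (without 4 °C replicate 2, 2.35% of all genes) over the settings that leave out 1 library. The count was 10 without 30 °C replicate 2 (2.2%), 13 without 30 °C replicate 1 (3.61%) and 15 without 30 °C replicate 3 (5.66%). Leaving out a library at 4 °C leaves 1 there, which is assumed to vary like the others. Total-count scaling, which does not correct for the pancreatic transcripts of 30 °C replicate 2, moved the median log2 fold change of all genes to 0.109 and gave a median of -0.38 over the members, a summed difference of -0.38 (as reported -0.51, log2) and 13 members whose groups did not overlap (5.41% of all genes). Under it 30 °C replicate 2 exceeded both tumours at 4 °C in 13 members. Leaving out 1 library gave medians from -0.67 to -0.35, summed differences from -0.66 to -0.38 and 24 to 33 members whose groups did not overlap and were lower at 4 °C, a class that fewer libraries widen (14.5% to 18.3% of all genes without a library at 30 °C, 29% without 4 °C replicate 1 and 24.5% without 4 °C replicate 2). Without both libraries with pancreatic transcripts the median was -0.62 and the summed difference -0.61. With the replicate number as a block, 8 members were lower at an unadjusted p under 0.05 (4.06% of all genes) and 0 had an adjusted p under 0.05 (44 of all genes did). The block changed no other call on members. Genes near 0 changed sign. Rfc3 (as reported 0.01) was at -0.01 with DESeq2 (with and without 30 °C replicate 2), with RLE scaling, without acinar genes, with at least 10 counts in every library and without 30 °C replicate 2, at -0.03 without 30 °C replicate 3, -0.07 with the block, -0.16 with the length trend removed, -0.40 without 4 °C replicate 2 and -0.41 without both libraries, and at 0.32 without 4 °C replicate 1. Pold1 (as reported 0.07) was at -0.03 without 30 °C replicate 1 and without both libraries, at -0.05 without 4 °C replicate 2 and at 0.17 without 4 °C replicate 1. Orc6 ranged from -0.70 without 4 °C replicate 2 to 0.02 without 4 °C replicate 1, and Gins2 from -0.65 to 0.09. For all of these, the cause was not tested. Members had between 204 and 7863 counts in every library.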

Other observations

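The genes that control the passage from G1 to S phase, which include the regulators of the replication members, also leaned lower at 4 °C. Of 33, 27 had a log2 fold change below 0 (median -0.41), beside 49.3% of all tested genes. At an unadjusted p under 0.05 in edgeR, 13 were lower (4.17% of all genes) and 0 were higher (2.58%). None passed the adjusted threshold of edgeR, while DESeq2 called 2, E2f8 and E2f7 (0.787% of its genes called lower). Without 30 °C replicate 2, DESeq2 called 0 of the 33. The E2F family was not uniform. E2f8, an atypical repressor of E2F targets, was at 108, 110.3 and 83.4 TMM-scaled CPM at 30 °C and at 41.3 and 49.7 at 4 °C (45.3%, log2 fold change -1.14, SE 0.21, edgeR unadjusted p = 0.0012, DESeq2 adjusted p = 0.0018). E2f7, the other atypical repressor, was at 13.2, 15.1 and 12.2 against 6.81 and 5.45 (log2 fold change -1.13, SE 0.24, edgeR unadjusted p = 0.0030). Of the activators, E2f2 was at 254, 327 and 208 against 170.1 and 148, whereas E2f1 (40.4, 43.4 and 32.5 against 24.9 and 35.3) and E2f3 (20, 25 and 25.4 against 21.2 and 16.1) overlapped between groups. E2f5 was at 8.30, 6.24 and 6.85 at 30 °C and at 8.35 and 10.3 at 4 °C.

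The S phase cyclins were lower at 4 °C in both tumours. Ccne2, cyclin E2, was at 51.0, 57.2 and 38.7 TMM-scaled CPM at 30 °C and at 28.1 and 27.7 at 4 °C, and Ccne1, cyclin E1, at 69.6, 64.9 and 55.6 against 35.6 and 49.7. Ccna2, cyclin A2, was at 248, 278 and 193 against 120.1 and 153 (57.0%, log2 fold change -0.81, SE 0.22, edgeR unadjusted p = 0.010). Ccnd3, a G1 cyclin of blood cells, was at 358, 323 and 267 against 183 and 243, while Ccnd1 overlapped between groups (61.6, 54.5 and 85.5 against 80.9 and 76.3). E2f1 to E2f3, E2f5 and the cyclins were named after their values were seen.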
